A study of Ovis aries with 15 samples.

Results

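The subject is the calcium switch of the sarcomere in developing sheep muscle, that is, the fast and slow troponin and tropomyosin genes TNNT1, TNNT2, TNNT3, TNNI1, TNNI2, TNNC1, TNNC2, TPM1, TPM2 and TPM3. Every probe set of the array whose only annotated gene symbol was one of these 10 was taken. This gave 13 probe sets for 9 of the 10 genes, out of 24016 probe sets in all, or 9 of 9155 named genes. TNNI1, slow troponin I, had no probe set under this rule and is not analysed here. TNNC1, TPM1, TPM2 and TPM3 had 2 probe sets each and the other 5 genes 1 each. RNA from longissimus dorsi (LD), a muscle that runs along the spine, was hybridised to an Affymetrix bovine array. The animals were Dorset/Suffolk/Rambouillet cross-bred sheep with no treatment, 3 different animals at each of 5 stages. These were fetuses at 80 d, 100 d and 120 d, newborn lambs at 150 d of development (1 to 3 days after birth) and lambs at 230 d (83 days after birth). By the study's methods all animals at 80 d, 150 d and 230 d were male, and 1 of the 3 at each of 100 d and 120 d was female. Which arrays those were is not given in the labels.

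Muscle contracts when myosin heads bind actin, and in resting fibres that binding is blocked by tropomyosin, a coiled-coil rod lying along the thin filament. Troponin sits on tropomyosin as a complex of a calcium-binding subunit (troponin C), an inhibitory subunit (troponin I) and a subunit that anchors the complex to tropomyosin (troponin T). Calcium released from the sarcoplasmic reticulum binds troponin C, which shifts tropomyosin and opens the filament to myosin. Fast and slow skeletal fibres use separate genes for each troponin subunit, and slow skeletal and cardiac muscle share the troponin C gene TNNC1. Tropomyosins are made from TPM1 (the alpha form of fast fibres and heart), TPM2 (the beta form) and TPM3 (the alpha form of slow fibres), and each of these genes also yields non-muscle forms by alternative promoters and splicing.

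The values are MAS5 signals, the authors' single number per probe set and array, on a linear scale on which each array was brought to a mean of 200. The trimmed mean was 200.1 on every array, and 50.7% to 58.1% of probe sets had a signal of at least 50, which was used here as the background level. Sheep RNA was read by bovine probes, so the levels of different probe sets were not set against each other. The number of arrays, 3 a stage, limits the precision. Because the RNA came from whole muscle, a change in the share of muscle fibres and a change in RNA per fibre cannot be told apart. Skeletal muscle markers were present, as 7 of 8 marker genes were on the array and all 7 had a mean signal of at least 50 at every stage.

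At 230 d the 13 probe sets together held 2.34% ± 0.229 of all signal (SD, n = 3), against 1.09% ± 0.0675 at 80 d. Of the 13, 8 had higher signals at 230 d than at 80 d and 5 had lower ones. The higher ones were TNNT1, TNNC1, TNNT3, TNNI2, TNNC2 and TPM2, and the lower ones TNNT2, TPM1 and TPM3. All 13 probe sets reached 50 on at least 3 arrays and were tested with limma on log2 signal across 15998 probe sets, with Benjamini-Hochberg adjustment, and a probe set was called where the adjusted p was under 0.01.

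Between neighbouring stages no member passed the test. None was called at 100 d against 80 d, where 0.125% of all probe sets were called, nor at 120 d against 100 d, where 0.0563% were. None was called at 150 d against 120 d, the interval that holds birth, although 11.2% of all probe sets were, and none at 230 d against 150 d, where 2.03% were. At an unadjusted p under 0.05 limma gave 3, 2, 7 and 1 of the 13 over these 4 intervals, where 8.24%, 7.44%, 35.1% and 22.8% of all probe sets were under it. A moderated F-statistic over the 4 intervals together called 9 of the 13, all but the TPM1 and TPM3 probe sets, while 25.8% of all probe sets were called by it. Over longer spans more members passed. TNNT1 alone was called at 120 d against 80 d, where 0.931% of probe sets were called as higher, and 3 members were called higher at 230 d against 120 d, where 5.79% were. At 230 d against 80 d, a comparison chosen after the values were seen, 8 member probe sets were called higher and 3 lower, beside 10.5% higher and 14.4% lower over all probe sets. The median log2 fold change of the 13 was 1.21 in that comparison and −0.07 over all probe sets.

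Slow troponin T, TNNT1, anchors the troponin complex to tropomyosin in slow fibres and had the largest rise among the members. Its signals were 2549, 2576 and 2291.5 at 80 d, 7062, 3886 and 3126 at 100 d, 9054.5, 9150.3 and 7758 at 120 d, 15673, 14601 and 18326 at 150 d and 18866, 20742 and 26714 at 230 d. Every array of a stage was above every array of the stage before it, across all 4 intervals. The 100 d arrays were the most uneven, with replicate 1 well above the other two. TNNT1 averaged 22107 ± 4099 in the 230 d lambs and 2472 ± 157 in the 80 d fetuses (SD, n = 3 each), an 8.86-fold rise (log2 3.15 ± 0.26 SE, limma adjusted p = 2.51e-06). Before birth it rose 3.50-fold at 120 d against 80 d (log2 1.81 ± 0.26, limma adjusted p = 0.00211). It rose a further 2.53-fold at 230 d against 120 d (log2 1.34 ± 0.26, limma adjusted p = 0.00282), a call lost under quantile normalization, which forces one distribution on all arrays (log2 0.84, limma adjusted p = 0.0302) and under scaling on the spiked hybridisation controls (log2 0.44, limma adjusted p = 0.277). At 150 d against 120 d its log2 difference was 0.90 ± 0.26, with an adjusted p of 0.0272 that missed the threshold. The 120 d against 80 d call was lost, at adjusted p of 0.0112 to 0.0130, without 80 d replicate 2 or 3 or without 120 d replicate 1 or 2, and the 230 d against 120 d call, at 0.0124 and 0.0137, without 230 d replicate 3 or 120 d replicate 3. The call over the whole span was kept with each array left out in turn.

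TNNC1 encodes the troponin C of slow and cardiac muscle, with a single regulatory calcium site in its amino-terminal lobe. Its brighter probe set read 13814, 9509 and 10352 at 80 d, 14628, 10596 and 9105 at 100 d, 15943, 13625 and 12432 at 120 d, 19732, 17597 and 20316 at 150 d and 25417, 22123 and 31753 at 230 d. Its other probe set read 6552, 7594 and 7759 at 80 d, 6680.1, 9439.6 and 7199.8 at 100 d, 9989, 12321 and 10062 at 120 d, 15696, 17442 and 19550.5 at 150 d and 13147, 22035 and 22327 at 230 d. The fetal stages overlapped on the first probe set, and all postnatal arrays stood above all fetal arrays on it. Both rose over the whole span, by 2.36-fold (log2 1.24 ± 0.23, limma adjusted p = 0.000920) and 2.56-fold (log2 1.36 ± 0.23, limma adjusted p = 0.000541). No postnatal step was called on either probe set. At 150 d against 120 d the first differed by log2 0.46 ± 0.23 (limma adjusted p = 0.165) and the other by 0.70 ± 0.23 (limma adjusted p = 0.0431). At 230 d against 150 d the first differed by log2 0.45 ± 0.23 (limma adjusted p = 0.259) and the other by 0.09 ± 0.23 (limma adjusted p = 0.850). On the other probe set, 230 d replicate 1 lay at 13147, below all 3 newborn arrays, while the others lay at 22035 and 22327. Over the 15 arrays the 2 TNNC1 probe sets correlated at r = 0.81 on the log2 scale. 

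The 3 fast troponin genes were all called higher over the whole span. Fast troponin T, TNNT3, had signals of 12468, 10022 and 12249.9 at 80 d, 16805, 14533 and 13225 at 100 d, 22699, 20073 and 16423 at 120 d, 38652, 23934 and 31855 at 150 d and 42059.7, 32580.3 and 45472.5 at 230 d. Fast troponin I, TNNI2, the inhibitory subunit, had signals of 16517, 12672 and 15281 at 80 d, 20387, 16092.5 and 14355 at 100 d, 23219, 19971 and 17391 at 120 d, 38636, 24583 and 32852 at 150 d and 44866, 34057 and 48970.5 at 230 d. For both genes every postnatal array was above every fetal array, and at both postnatal stages replicate 2 was the lowest of the 3. TNNT3 rose 3.44-fold over the whole span (log2 1.78 ± 0.22, limma adjusted p = 5.15e-05) and TNNI2 rose 2.86-fold (log2 1.52 ± 0.23, limma adjusted p = 0.000239). Both also rose at 230 d against 120 d, TNNT3 by log2 1.02 ± 0.22 (limma adjusted p = 0.00502) and TNNI2 by log2 1.07 ± 0.23 (limma adjusted p = 0.00456). Under quantile normalization these differences were 0.04 and 0.08 (limma adjusted p = 0.864 and 0.708), and under control scaling 0.12 and 0.17 (limma adjusted p = 0.705 and 0.592). The 2 calls at 230 d against 120 d were also lost without 120 d replicate 2 or 3 or without 230 d replicate 1 or 3, at adjusted p of 0.0154 to 0.0250 for TNNT3 and 0.0156 to 0.0222 for TNNI2.

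Fast troponin C, TNNC2, the calcium sensor of fast fibres, had overlapping signals through the fetal stages. Its signals were 25105, 16753 and 21026 at 80 d, 25667, 19075 and 16719.9 at 100 d, 25839, 22839 and 19391 at 120 d, 39202, 25519.7 and 32863 at 150 d and 46928, 35171 and 54516 at 230 d. The 3 fetal stages overlapped throughout and 150 d replicate 2 still lay within the range of 120 d, whereas all 230 d arrays were above every fetal array. At 120 d against 80 d the log2 difference was 0.12 ± 0.25 (limma adjusted p = 0.887). Over the whole span TNNC2 rose 2.17-fold (log2 1.12 ± 0.25, limma adjusted p = 0.00372), and that call was lost at adjusted p of 0.0123 to 0.0203 without 80 d replicate 2 or 3 or without 230 d replicate 1 or 3. Replicate 1 was the highest array at 4 of the 5 stages for TNNC2, and likewise for TNNT3 and TNNI2, although each stage used different animals. The file does not record saturation, so whether the brightest of these spots were still in the linear range was not tested.

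**Figure D1:**
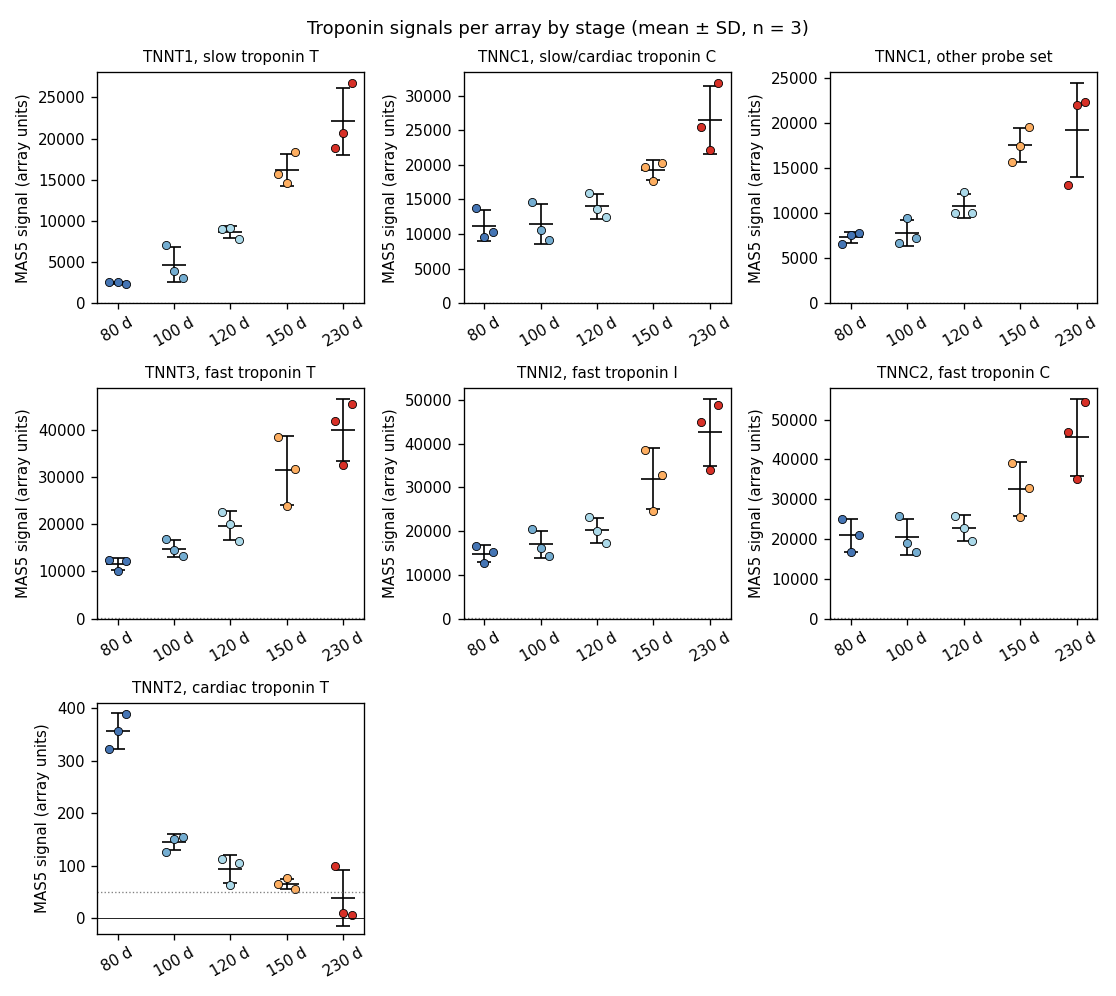
MAS5 signal (array units, linear axis) of the 7 troponin probe sets by stage. Points are single arrays (replicates 1 to 3 from left to right), and bars give the mean and SD of 3. The slow and fast forms are higher at 230 d than at 80 d, TNNT1 by the largest factor. TNNC2 and the brighter TNNC1 probe set overlap between the fetal stages. TNNT2 declines towards the dotted line at a signal of 50, and 2 of its 230 d arrays lie below it, at 8.7 and 6.1.

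TNNT2 encodes cardiac troponin T, which skeletal muscle of birds and rodents also makes for a time during development. It was the only troponin here with a falling signal. TNNT2 read 322, 357 and 390.3 at 80 d, 127, 151 and 155.5 at 100 d, 113, 62.9 and 106 at 120 d, 64.8, 75.6 and 56.2 at 150 d and 100.0, 8.7 and 6.1 at 230 d. The decline began in the fetus, since the 80 d arrays were all above the 100 d arrays and those above the 120 d arrays. At 230 d, 2 arrays were far under the background level of 50 and replicate 1 was at 100.0. Since the 230 d geometric mean, 17.4, was under 50, the change is a bound: TNNT2 was at least 7.10-fold lower at 230 d than at 80 d, taking 230 d at 50 (limma adjusted p = 0.000629). Over the fetal stages alone TNNT2 had a log2 difference of −1.97 ± 0.75 at 120 d against 80 d, with an adjusted p of 0.193. The shared estimate of the spread included 230 d replicate 1, and without that array the same difference had an adjusted p of 0.00112, with similar shifts at 230 d against 150 d (adjusted p = 0.154, and 0.000453 without it) and 230 d against 120 d (0.0326, and 1.91e-05 without it). Of 7 cardiac muscle markers listed, 3 were on the array (MYBPC3, NPPA and TNNI3), 2 were tested and none was called at 230 d against 80 d. Their summed signal was 213 to 282 at 230 d and 125 to 138 at 80 d. TNNI3, cardiac troponin I, had a mean signal of 38.4 at 230 d and 9.7 at 80 d, both under 50.

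The troponin T and I genes lie in pairs in the genome. On the sheep assembly ARS-UI_Ramb_v3.0 as annotated by RefSeq, TNNT3 and TNNI2 are separated by 2 genes (PRR33 and LSP1), TNNT2 and TNNI1 by 1 gene (LAD1), and TNNT1 and TNNI3 are adjacent. One of these pairs had both genes above the background. TNNT3 and TNNI2 correlated at r = 0.99 over the 15 arrays, whereas TNNI3, the neighbour of the rising TNNT1, had a mean signal under 50 at every stage, and the neighbour of TNNT2 had no probe set. These correlations are over arrays that share stage and scaling and are given as a description.

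The ratio of slow to fast forms within an array asks whether the RNA signal shifted towards slow forms. It does not depend on a factor applied to the whole array. The subunits of the assembled complex were not measured. Of the 3 pairs of paralogues, TNNT1 over TNNT3 and TNNC1 over TNNC2 could be taken, and TNNI1 over TNNI2 could not because TNNI1 had no probe set. Only the change of a ratio is read, because its level depends on the probes. The log2 ratio of TNNT1 to TNNT3 averaged −0.90 ± 0.27 on the 6 postnatal arrays and −1.72 ± 0.52 on the 9 fetal arrays (SD). The difference of 0.82, a 1.76-fold change, had p = 0.00480 by a two-sided exact permutation test over 5005 splits, or 0.00959 after adjustment over the 2 pairs. This test pools stages that differ among themselves, and most of the shift came before birth. The mean log2 ratio was −2.22, −1.74 and −1.18 over the fetal stages 80 d, 100 d and 120 d, then −0.94 in newborn lambs and −0.86 in lambs of 230 d. The 120 d arrays, at −1.33 to −1.08, overlapped the postnatal arrays, at −1.30 to −0.65. For TNNC1 over TNNC2 the log2 ratio averaged −0.76 ± 0.16 postnatally and −0.81 ± 0.11 in the fetus. That difference of 0.05 was smaller than the spread between arrays (two-sided exact permutation p = 0.449, n = 6 and 9, also 0.449 after adjustment). Under quantile normalization the TNNC1 over TNNC2 difference became 0.30 (exact permutation p = 0.00180), so the statement on this pair depends on the scaling.

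**Figure D2:**
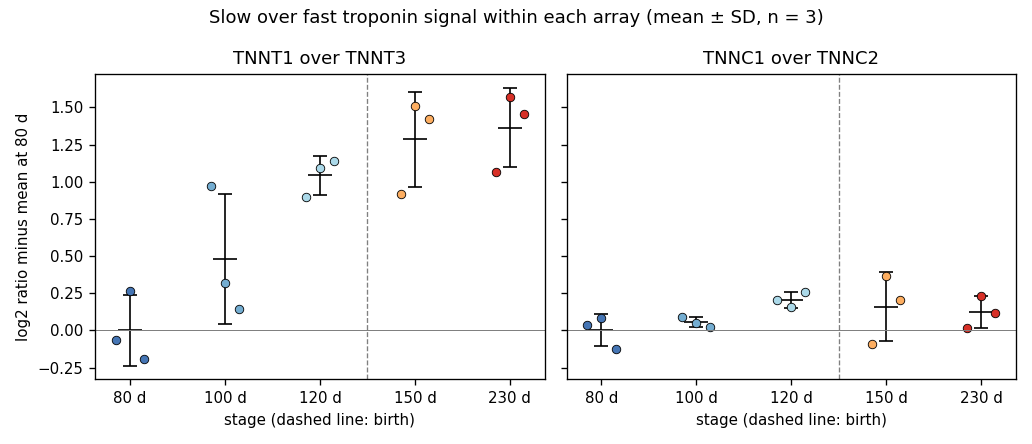
Log2 ratio of slow to fast troponin signal within each array, minus the mean ratio at 80 d (no units), by stage. Points are single arrays, bars the mean and SD of 3, and the dashed line marks birth. TNNT1 over TNNT3 climbs mainly between 80 d and 120 d, and TNNC1 over TNNC2 has stage means within 0.21 of its 80 d mean.

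Among the tropomyosins TPM2 rose and then levelled off in the signals as deposited. The brighter TPM2 probe set read 8484, 8723 and 9251 at 80 d, 12003, 12685 and 11531 at 100 d, 14977, 15935.5 and 15314 at 120 d, 18867, 22827 and 25221 at 150 d and 19357, 18700.3 and 27350.1 at 230 d. Its replicates were close in the fetus and spread out after birth, and each stage up to 150 d lay wholly above the one before. The other TPM2 probe set read 6710.5 to 8424, 7896 to 10772 and 11929.7 to 13719 over the 3 fetal stages, then 14162 to 21609.9 in newborn lambs and 16347 to 18278 in lambs of 230 d. Over the whole span the probe sets rose 2.44-fold (log2 1.28 ± 0.18, limma adjusted p = 0.000144) and 2.31-fold (log2 1.21 ± 0.20, limma adjusted p = 0.000398). Both whole-span calls were lost under quantile normalization (limma adjusted p = 0.0167 and 0.0783) and under control scaling (limma adjusted p = 0.0736 and 0.130). By 120 d the probe sets stood log2 0.81 ± 0.18 and 0.79 ± 0.20 above 80 d, with adjusted p of 0.0283 and 0.0426. The step at 150 d against 120 d, log2 0.52 ± 0.18 and 0.49 ± 0.20, was not called (limma adjusted p = 0.0559 and 0.0908). Under quantile normalization that step was log2 0.05 and −0.01. At 230 d against 150 d both differences were near 0, at log2 −0.04 ± 0.18 and −0.08 ± 0.20.

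TPM1 was lower after birth on its brighter probe set. That probe set read 432, 1121 and 859.8 at 80 d, 992, 1040.1 and 1223 at 100 d, 721.5, 916.5 and 949 at 120 d, 419, 432 and 355 at 150 d and 561, 558 and 348 at 230 d. All 6 postnatal arrays lay below all 100 d and 120 d arrays, while 80 d was split, with replicate 1 at the postnatal level and the others at the later fetal level. At 150 d against 120 d TPM1 had the largest difference of any member, log2 −1.10 ± 0.31, at an adjusted p of 0.0241 that missed the threshold, and 0.00610 without 80 d replicate 1. Against 80 d the 230 d difference was log2 −0.64 ± 0.31 (limma adjusted p = 0.121, and 0.00874 without 80 d replicate 1). The other TPM1 probe set lay near the background, at 33.3 to 127 over all arrays with every stage overlapping its neighbours. The sources used here do not say which of the TPM1 transcripts either probe set matches.

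TPM3 declined slowly. Its brighter probe set read 1595, 1449 and 1538.5 at 80 d, 1089, 1069.9 and 1229 at 100 d, 1529, 1278 and 1065 at 120 d, 1134, 1028.5 and 948 at 150 d and 987, 861 and 972 at 230 d. The 80 d arrays were above all 100 d arrays, 120 d was broad, and 230 d lay wholly below 80 d, 100 d and 120 d. Its other probe set read 378 to 455 at 230 d, against 661 to 952 at 80 d. Over the whole span they fell to 0.615 and 0.513 of the 80 d level, the log2 differences being −0.70 ± 0.17 (limma adjusted p = 0.00610) and −0.96 ± 0.23 (limma adjusted p = 0.00473). The first call was lost with any 1 of the 6 arrays of these stages left out (adjusted p 0.0125 to 0.0240) and the second without 80 d or 230 d replicate 2 or 3 (0.0120 to 0.0241). Both TPM3 probe sets moved against those of TNNT1 and TNNC1, slow-fibre genes of the set, over the same animals. The sources used here do not say whether the TPM3 probe sets match the slow-muscle form or non-muscle forms. TPM4, a non-muscle tropomyosin outside the set, averaged 1836 ± 448 at 150 d and 2774 ± 63.1 at 120 d (log2 −0.62 ± 0.25, limma adjusted p = 0.0907).

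**Figure D3:**
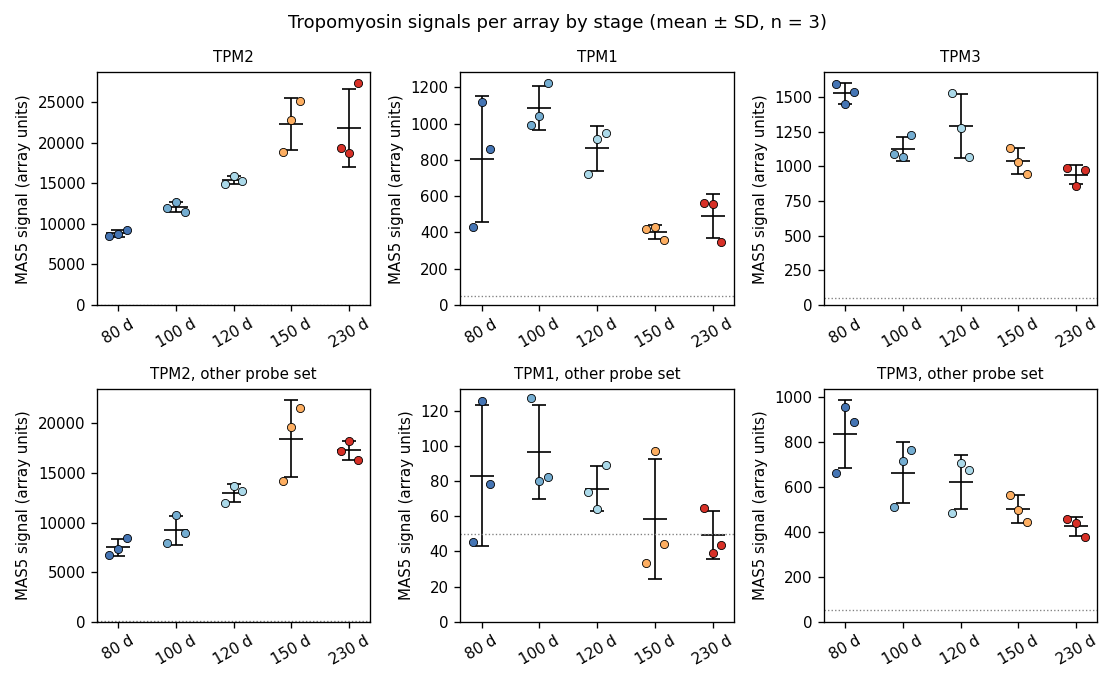
MAS5 signal (array units, linear axis) of the 6 tropomyosin probe sets by stage. Points are single arrays (replicates 1 to 3 from left to right), bars give the mean and SD of 3, and the dotted line marks a signal of 50. In these signals as deposited TPM2 means climb to 150 d and stay near that level, a step at birth that was not called. TPM1 is lower after birth than at 100 d and 120 d on its brighter probe set, and TPM3 drifts down.

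The fetal and the later span were set side by side for each member. TNNT1 and TPM2 had larger log2 changes at 120 d against 80 d than at 230 d against 120 d, namely 1.81 and 1.34 for TNNT1 and 0.81 and 0.48 for the brighter TPM2 probe set. For the fast troponins and TNNC1 the later span was the larger on every probe set in the signals as deposited, with TNNC2 at 0.12 and 0.99 and TNNI2 at 0.44 and 1.07. That order turned for all 5 of these probe sets under control scaling, with TNNC2 at 0.34 and 0.09 and TNNI2 at 0.66 and 0.17. It turned for 4 of the 5, all but the brighter TNNC1 probe set, under quantile normalization, with TNNC2 at 0.12 and −0.04 and TNNI2 at 0.48 and 0.08. The order of TNNT1 and TPM2 was the same under both, with the later difference of the brighter TPM2 probe set at −0.06 under quantile normalization and −0.42 under control scaling. These 2 comparisons share the 120 d arrays, and the difference between them was not tested. Across birth, 7 of the 13 probe sets had all 3 arrays at 150 d above all 3 at 120 d, where 14.3% of all probe sets did, and 1, the brighter TPM1 probe set, had all 3 below, where 22.9% of all did. At a looser adjusted p of 0.05, a threshold added after the values were seen, 4 members passed at 150 d against 120 d, namely TNNT1, TNNT3 and the second TNNC1 probe set as higher and TPM1 as lower, while 22.4% of all probe sets passed. At 230 d against 120 d, 8 of the 13 had all arrays above, where 18.9% of all probe sets did. The brighter TPM1 and both TPM3 probe sets, 3 of the 13, had all arrays below, where 22.9% of all did.

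**Figure D4:**
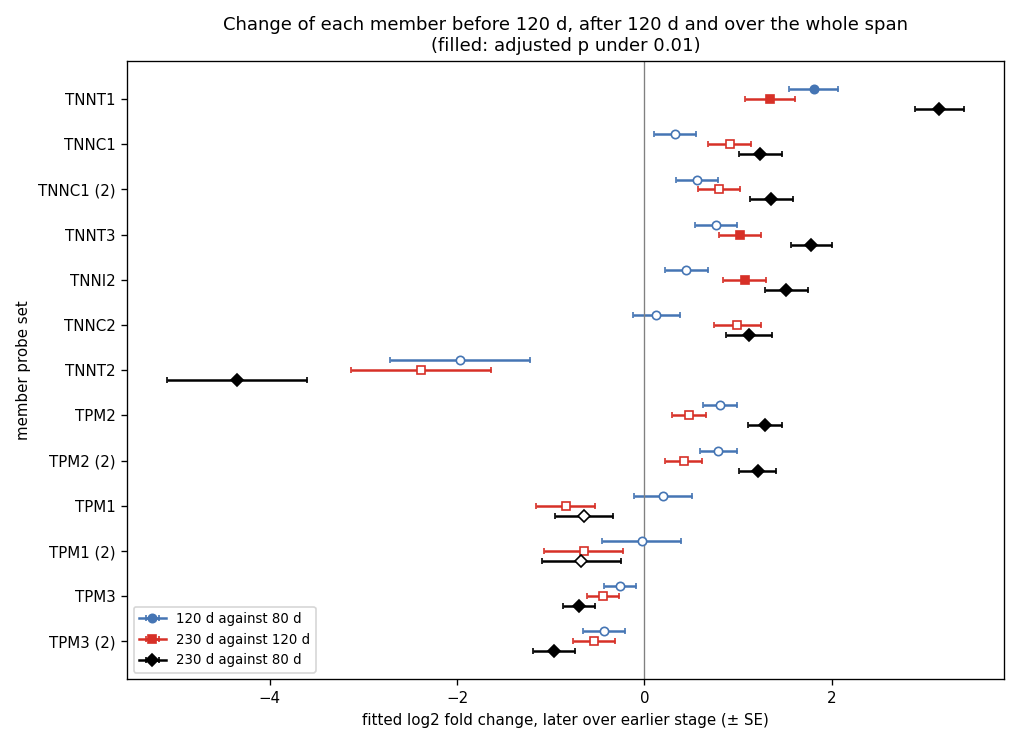
Fitted log2 fold change (later over earlier stage, ± SE, n = 3 arrays a stage) of each member probe set at 120 d against 80 d, 230 d against 120 d and 230 d against 80 d. Filled symbols passed an adjusted p of 0.01, and (2) marks the dimmer probe set of a gene. TNNT1 is filled in all 3 comparisons, and TNNT3 and TNNI2 only in the 2 that end at 230 d.

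The size of the postnatal rise depended on how arrays were scaled, and the bright end of the whole distribution moved with the members. The 99.9th percentile of signal was 17322 ± 2573, 16034 ± 2352 and 17876 ± 1694 over the fetal stages 80 d, 100 d and 120 d, then 25636 ± 3431 in newborn lambs and 30698.5 ± 3661 in lambs of 230 d (SD, n = 3 per stage). Quantile normalization removes such a shift by construction. Under it the log2 difference of TNNI2 at 150 d against 120 d was 0.04, beside 0.65 as deposited, and TNNC2 at 230 d against 80 d was 0.08 (limma adjusted p = 0.657), beside 1.12 as deposited. TNNT1, TNNT3 and TNNI2 were still called as higher at 230 d against 80 d under it, at log2 2.65, 0.83 and 0.56 (limma adjusted p = 8.67e-06, 0.000401 and 0.00549). Scaling on the spiked hybridisation controls lowered all log2 values at 150 d against 120 d by 0.65 and at 230 d against 80 d by 0.68. With that scaling 5 member probe sets (the brighter TNNC1, TNNC2, TNNI2 and both TPM2) changed sign at 150 d against 120 d, and at 230 d against 80 d only TNNT1 (log2 2.46) and TNNT3 (log2 1.10) stayed called as higher. Over the whole span no member changed sign under any of the 4 other scalings run. TNNT2 and both TPM3 probe sets stayed called as lower at 230 d against 80 d under quantile normalization and under the control scaling. None of these was called with only the 6 arrays of the 2 stages (limma adjusted p = 0.0211 for TNNT2, 0.0233 and 0.0177 for TPM3). Neither TPM3 probe set was called with no filter (limma adjusted p = 0.0171 and 0.0121).

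**Figure D5:**
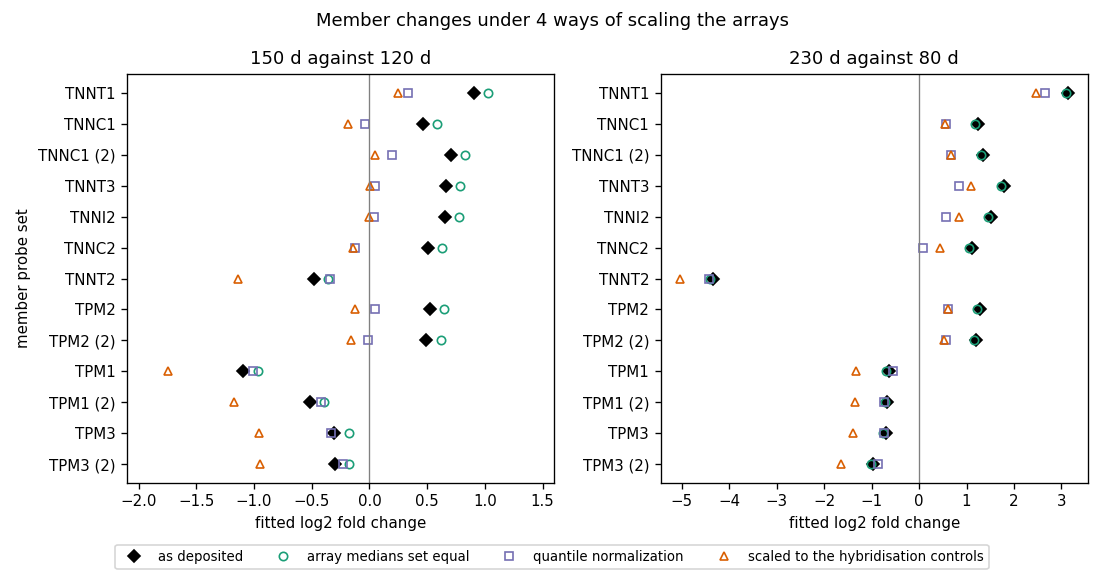
Fitted log2 fold change of each member probe set at 150 d against 120 d (left) and 230 d against 80 d (right) under 4 ways of scaling the arrays. (2) marks the dimmer probe set of a gene. Across birth the rising members gather near 0 under quantile normalization and under control scaling, and over the whole span TNNT1 stays at 2.46 or more under all 4.

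Genes that work beside troponin gave a background for these values. In a list of 23 thin filament partners, 15 were on the array and 14 were tested. At 150 d against 120 d, 2 rose and none fell, where 4.41% of all probe sets rose and 6.77% fell. The 2 were TMOD4 (log2 1.5 ± 0.26, limma adjusted p = 0.00159) and TMOD1 (log2 1.07 ± 0.23, limma adjusted p = 0.00543), both tropomodulins, which cap the pointed end of the thin filament beside tropomyosin. The median over the 14 was log2 0.45, over the 13 member probe sets 0.49 and over all probe sets −0.15. Over the whole span 6 of the 14 rose and 2 fell, where 10.5% of all rose and 14.4% fell. Of 8 other slow-fibre genes tested, 3 rose at 150 d against 120 d and 7 rose over the whole span, with none falling in either. The 3 were MYL3, the slow essential light chain (log2 4.43 ± 0.53, limma adjusted p = 0.000194), PLN, the inhibitor of the slow calcium pump (log2 1.52 ± 0.32, limma adjusted p = 0.00530), and ATP2A2, that pump (log2 1.38 ± 0.17, limma adjusted p = 0.000235). Of 7 other fast-fibre genes, 1 rose across birth, the fast calcium pump ATP2A1 (log2 1.18 ± 0.20, limma adjusted p = 0.00134), and all 7 rose over the whole span. Of 7 calcium release and uptake genes, 3 rose across birth, ATP2A1, ATP2A2 and CACNB1, a subunit of the voltage sensor (log2 1.14 ± 0.18, limma adjusted p = 0.000863), and 4 rose over the whole span. Of 4 developmental sarcomere genes 2 fell across birth. They were MYL4, the embryonic light chain (log2 −6.66 ± 0.63, limma adjusted p = 4.32e-05), and MYH8, the perinatal myosin heavy chain (log2 −3.66 ± 0.67, limma adjusted p = 0.00219), and all 4 fell over the whole span, as TNNT2 did.

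The summed levels of cell type markers are given beside these values. The summed signal of the 7 skeletal muscle markers on the array, such as CKM and ACTA1, was 170432 to 222550 at 230 d and 42952 to 54238 at 80 d, and the sum of the 8 connective tissue markers was 44671 to 53140 at 230 d and 68543 to 85654 at 80 d. The 6 endothelial markers on the array, of 7 listed, summed to 1761 to 3300.2 at 150 d and 5513 to 6519 at 120 d. Their sum was 2723 to 2993 at 230 d and 3404 to 3865 at 80 d. Smooth muscle markers, 7 of 8 on the array, which could carry TPM1 and TPM2 RNA, summed to 4341 to 5135 at 150 d and 5083 to 5770 at 120 d, with 7220 to 7485 at 230 d and 7024 to 8167 at 80 d. The erythroid list (6 of 6) summed to 214 to 328 at 230 d and 14505 to 24473 at 80 d, a difference carried by HBB (mean 56 at 230 d and 18818 at 80 d), and 2 of its 5 tested genes were called lower. The adipose (5 of 6), leukocyte (6 of 7) and nerve (5 of 7) lists summed to 556 to 795, 580 to 695 and 406 to 550 at 230 d, against 173 to 249, 327 to 427 and 448 to 596 at 80 d. Of the tested genes at 230 d against 80 d, 6 of 7 skeletal muscle markers were called higher and 4 of 8 connective tissue markers lower. Smooth muscle had 1 of 7 higher and 2 lower, and endothelium 1 of 6 lower. Adipose had 2 of 4 higher, leukocyte 1 of 4 higher and nerve 1 of 3 lower. Over all probe sets 10.5% were called higher and 14.4% lower. The ratio of 3′ to 5′ signal of the actin control probe sets averaged 1.89, 1.53 and 1.03 over the fetal stages 80 d, 100 d and 120 d, then 0.910 in newborn lambs and 0.995 in lambs of 230 d. That of the GAPDH control probe sets averaged 1.09, 1.13 and 1.14 over the fetal stages, then 1.21 and 1.16. The part of these shifts in the members' values was not tested.

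The genes whose log2 signals followed each member most closely over the 15 arrays were sought among 7544 named genes with 1 probe set each. They are a description, since all arrays share stage and scaling. Nearest to TNNT1 was MYH7, the slow myosin heavy chain (r = 0.99), then VLDLR and C16H1orf21 (both r = 0.98). Nearest to TNNC2 were the fast light chains MYL11 and MYL1 (r = 0.996 and 0.993) and then TPT1 (0.97). TNNT3 and TNNI2 were both nearest to CKM, muscle creatine kinase (r = 0.99 and 0.98), with the glycolytic GAPDH and ALDOA next for TNNT3 (both 0.99) and SLN, a small inhibitor of the calcium pump, and GAPDH for TNNI2 (both 0.98). The brighter TNNC1 probe set was nearest to NDUFA1 (0.97), PCBP1 (0.97) and MRPS16 (0.96), and among the members it lay closer to TNNI2 and TNNC2 (both 0.97) than to TNNT1 (0.91). The other TNNC1 probe set had the opposite order, at 0.90 with TNNT1, 0.83 with TNNI2 and 0.72 with TNNC2. TPM2 was nearest to ATP2A1 (0.97), ATP1B1 (0.96) and CNKSR2 (0.96). The members with falling signals had looser neighbours. These were HNRNPM, UCK1 and DGUOK for TNNT2 (0.94, 0.93 and 0.92), CD302, RIT1 and JMJD1C for TPM1 (0.91, 0.90 and 0.90) and BPNT2, TRA2B and LPCAT1 for TPM3 (0.88, 0.87 and 0.87).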

How the data were processed

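The deposited table holds MAS5 signal intensities, 1 column per array, with 15 arrays of biotin-labelled LD muscle RNA on a 1-colour Affymetrix bovine array. Per the study's methods the authors corrected background by zone, drew 1 value from the matched and mismatched probe pairs of each set, and brought every array to a mean of 200. Scanner files were not used here, so saturation and spot quality are not known.

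Groups were the 5 stages in the labels. The members and the gene lists were chosen with earlier results of these data known. The platform annotation gave 1 gene symbol for 13292 of 24016 probe sets and several for 86, and the 112 control probe sets were left out. Signals were floored at 0.1 (2 values) and taken to log2. A probe set was kept where 3 or more arrays read 50 or higher. limma 3.58.1 (R 4.3.3) fitted stage over all 15 arrays with 10 residual degrees of freedom, and p-values were adjusted by Benjamini-Hochberg over all kept probe sets of a contrast. The smallest p of the exact permutation test was 0.000200. The fit was checked on simulated data, and this test on small fixed inputs with known answers. Names were fixed by a rule: all members with all their probe sets, up to 4 genes of each list with the largest change among those called at 150 d against 120 d (thin filament partners, other slow-fibre, other fast-fibre, developmental sarcomere and calcium release genes), and the 3 genes nearest to each member by correlation, taking each gene's brightest probe set by mean log2. TPM4 and TNNI3 were named in addition, after their values were seen. The alternatives tried were other array scalings, an offset of 16, no filter or a minimum of 100, limma with trend and robust settings, a fit on 6 arrays, a replicate block and leaving out each array. No sequence is shown.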

Additional observations from a re-analysis of the deposited data

How the results depend on the processing

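No member reversed direction while called. At 150 d against 120 d the count of members called was 0 as reported and 3 (all lower) with hybridisation-control scaling. It was 2 with limma's trend and robust settings and 0 under the other settings that keep all arrays. Over all probe sets 25.2% were called with control scaling (162 higher and 3872 lower) and 14.6% with trend and robust settings. At 120 d against 80 d the count of 1 became 2 with quantile normalization and 3 with trend and robust settings. The shares of all probe sets called were 1.56% and 2.67%. At 230 d against 120 d the count of 3 became 0 with quantile normalization or with only the 6 arrays of the 2 stages, 1 with no filter, 4 (all lower) with hybridisation-control scaling, 5 with an offset of 16 or a minimum of 100, and 6 with trend and robust settings. At 230 d against 80 d the count of 11 became 6 with quantile normalization (3 higher, 3 lower) and 6 with hybridisation-control scaling (2 higher, 4 lower). It was 9 with no filter (8 higher, 1 lower) and 5 with only 6 arrays (5 higher, 0 lower). In the same order 25.0%, 34.1%, 13.2% and 16.1% of all probe sets were called. Over any of the 4 intervals the count of 0 became 3 with hybridisation-control scaling and 2 with trend and robust settings. It was 9 with the moderated F-statistic, which pools the intervals. The shares of all probe sets called were 26.1%, 17.0% and 25.8%. The cause of these changes was not tested, except that fitting 6 arrays uses fewer samples.

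Leaving out each array in turn gave 0 to 1 members at 150 d against 120 d (1 without 80 d replicate 1 or 100 d replicate 1), 0 to 1 at 230 d against 150 d (1 without 230 d replicate 1), 0 to 2 at 120 d against 80 d, 0 to 4 at 230 d against 120 d (0 without 120 d replicate 3 or 230 d replicate 3), 8 to 11 at 230 d against 80 d, 0 to 1 over any interval and 0 throughout for 100 d against 80 d and 120 d against 100 d. The TNNT1 over TNNT3 difference of 0.82 ranged over 0.73 to 0.90 with exact permutation p of 0.00333 to 0.0145, and TNNC1 over TNNC2 over 0.01 to 0.10 with p of 0.153 to 0.881. With quantile normalization these were 1.05 and 0.30 (exact permutation p = 0.00180 for both). With the other TNNC1 probe set the second was 0.25 (exact permutation p = 0.287). No TNNI1 over TNNI2 result could be computed.

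With the replicate number as a block, 230 d against 120 d gave 5 members, beside 13.8% of all probe sets, and no other count changed. The ratio tests, permuted within replicate numbers, had exact permutation p of 0.00600 and 0.439. By the study's methods each stage used different animals, so the numbers do not mark repeated sampling of an animal. Same-numbered arrays of different stages correlated at r = −0.05 to 0.21 in their deviations from stage means. Of the 15 arrays 8 correlated best with their own number. Whether same-numbered arrays were processed together is not given in the labels and was not tested.

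Each scaling moved the fitted log2 differences, and the median move over all tested probe sets is given here. With array medians set equal it was 0.13 (150 d against 120 d) and −0.18 (230 d against 150 d). With quantile normalization it was 0.12 and −0.10 in these contrasts, and with hybridisation-control scaling −0.65 and −0.25. Control scaling also gave −0.90 (230 d against 120 d), −0.68 (230 d against 80 d), 0.18 (100 d against 80 d) and 0.22 (120 d against 80 d). The share of called probe sets that were higher at 150 d against 120 d was 39.5% as deposited, 54.4% with medians set equal and 4.02% with control scaling. Signals near 50, as for TNNT2 after 100 d and the dimmer TPM1 probe set, carry little information on size of change.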
